A study of Homo sapiens with 8 samples.

Results

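Integrins are the receptors by which cells hold on to the extracellular matrix. The members described here are the genes of 16 integrin alpha subunits, 8 integrin beta subunits and 13 proteins of the adhesion sites that tie integrins to actin. They were chosen by name from a list of integrin subunits and focal adhesion proteins, with earlier results of these data known. All 37 were found among the 57820 genes of the deposited table. J82, an established human bladder cancer line, was grown in DMEM with FBS, trypsinized, stained with Hoechst dye and sorted by flow cytometry into side population (SP) cells, which exclude the dye, and non-side population (NSP) cells. RNA of 4 SP and 4 NSP samples was sequenced, and reads were counted per gene. The 2 groups differ only in the sorted population: no drug or genetic change is given for either. All samples come from 1 cell line, and the labels do not say whether replicates came from separate cultures or sorts, so p-values measure the spread between these samples.

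An integrin is a pair of 1 alpha and 1 beta subunit, and the pair decides the ligand: collagens, laminins, fibronectin and other RGD proteins, or receptors on leukocytes. ITGB1 pairs with most alpha subunits, while ITGA6 can also pair with ITGB4 in the hemidesmosomes of epithelia such as the urothelium. Talins and kindlins bind the beta tail and switch the receptor to its active form. Vinculin, paxillin, zyxin, tensins and the complex of ILK, parvin and PINCH then link the receptor to actin, and the kinase FAK signals from the same sites.

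The deposited libraries had 1431823 to 1697218 counted reads in the SP samples and 1489033 to 2073526 in the NSP samples. These numbers are far below the raw reads per sample that the paper reports, and the cause was not tested. A gene was tested where it passed a filter on low counts, and 9309 genes did. Levels are given as CPM, the count of a gene scaled to a common library size after normalization. A gene is said to have risen or fallen where edgeR's quasi-likelihood test gave a Benjamini-Hochberg adjusted p under 0.05 over all tested genes and the fold change exceeded 1.3. Samples with the same replicate number deviated together, so the value with replicate number as a block is given wherever it changed that call, and "only with the block" compares these 2 fits. The population labels were checked on ABCB1, an efflux pump that exports Hoechst dye, whose level was 4.05 ± 3.23 CPM in NSP and 30.3 ± 4.76 CPM in SP cells (SD, n = 4). The epithelial keratins KRT8 and KRT18 had 2792 to 5093 CPM and 330 to 488 CPM, KRT7 had 155 to 768 CPM and KRT19 had 8.10 to 57.9 CPM. EPCAM, another epithelial marker, had at most 1 count in any library. The mesenchymal marker VIM had 200 to 746 CPM, and CDH2, ZEB1 and ZEB2 had at most 51.6 CPM. Of 6 urothelial markers only UPK2 was tested and UPK3A had no count. Among the markers of leukocytes and endothelium, PTPRC and CD3E had no count, CDH5 and VWF had at most 1 count in any library, and CD68 had 8 to 20.

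The promoters of 3 members with large differences between SP and NSP cells are shown first, because they can be read beside the counts. ITGA5 fell in SP cells, ITGA11 rose in SP cells in the fit with the replicate block, and ITGA2 was nearly uncounted in SP cells. Each window runs from 250 bases before to 30 bases after the transcription start given by RefSeq for GRCh38.p14, 5′ to 3′ on the gene's own strand. It lies at chr12:54419237-54419516 on the minus strand for ITGA5, at chr15:68432134-68432413 on the minus strand for ITGA11 and at chr5:52989102-52989381 on the plus strand for ITGA2. Capitals mark the motifs searched on both strands: TGACTCA (AP-1), GGGCGG (SP/KLF), GGAATG (TEAD) and TGTTTAC (forkhead).
ITGA5: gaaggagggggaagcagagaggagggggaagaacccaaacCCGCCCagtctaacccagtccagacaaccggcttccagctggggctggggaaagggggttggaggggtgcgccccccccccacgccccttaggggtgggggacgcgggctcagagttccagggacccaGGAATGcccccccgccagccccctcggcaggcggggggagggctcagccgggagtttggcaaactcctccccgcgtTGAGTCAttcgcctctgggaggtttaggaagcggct
ITGA11: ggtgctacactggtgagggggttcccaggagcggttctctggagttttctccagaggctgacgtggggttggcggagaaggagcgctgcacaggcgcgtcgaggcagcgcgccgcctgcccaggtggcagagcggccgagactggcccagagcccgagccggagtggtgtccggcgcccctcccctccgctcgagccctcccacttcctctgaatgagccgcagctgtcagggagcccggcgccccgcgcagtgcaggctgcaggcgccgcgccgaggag
ITGA2: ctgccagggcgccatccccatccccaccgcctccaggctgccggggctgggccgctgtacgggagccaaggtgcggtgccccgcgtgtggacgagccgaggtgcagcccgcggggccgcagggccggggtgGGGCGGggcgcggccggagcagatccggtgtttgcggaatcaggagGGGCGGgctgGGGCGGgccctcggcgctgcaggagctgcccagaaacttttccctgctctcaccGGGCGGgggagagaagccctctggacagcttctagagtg

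The ITGA5 window held 1 AP-1 match (read as TGAGTCA on this strand), 1 SP/KLF match (read as CCGCCC) and 1 TEAD match. The ITGA2 window held 4 SP/KLF matches and none of the other motifs, and the ITGA11 window held none of the 4 motifs. No matches overlapped in these windows. Of 35116 RefSeq promoter windows of this length, 4.73% held the AP-1 letters, 44.1% the SP/KLF letters, 13.3% the TEAD letters and 3.25% the forkhead letters, so the GGGCGG matches are of a kind common to promoters. A match is a run of letters and was not tested as a binding site. RefSeq windows were matched for 26 of the 37 members.

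Of the 37 members, 34 had at least 1 count and 21 passed the filter: 7 of 16 alpha subunits, 3 of 8 beta subunits and 11 of 13 adhesion site genes. In SP cells 3 of the 21 fell (ITGA3, ITGA5 and ITGB5), against a background of 2.03% of all tested genes that fell (3.66% changed in either direction). None of the 21 rose by edgeR's test, nor any member by DESeq2, where 1.63% and 1.28% of all tested genes rose. In edgeR's test 3 of the 21 had an unadjusted p under 0.05 in that direction and 5 in the other. Over all 9309 tested genes these numbers were 757 and 770. With the replicate block 5 members fell (ITGA3, ITGA5, ITGB5, ITGB1 and ZYX) and 3 rose (ITGA11, PARVA and TNS3), against backgrounds of 7.00% falling and 5.89% rising. DESeq2 called 4 members lower, among 2.05% of all genes it tested. Without the filter on low counts, 1 member rose and 5 fell, against 1.15% and 1.45% of the genes tested. The median log2 fold change, SP over NSP, was -0.12 over the tested members and 0.01 over all tested genes, with 15 members below 0 and 6 above. In ITGA3 and ITGB5 every SP library lay below every NSP library, and 9.75% of all tested genes had libraries that did not overlap in one direction or the other. In bulk samples, fewer cells that express a gene and less RNA per cell cannot be told apart.

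**Figure D1:**
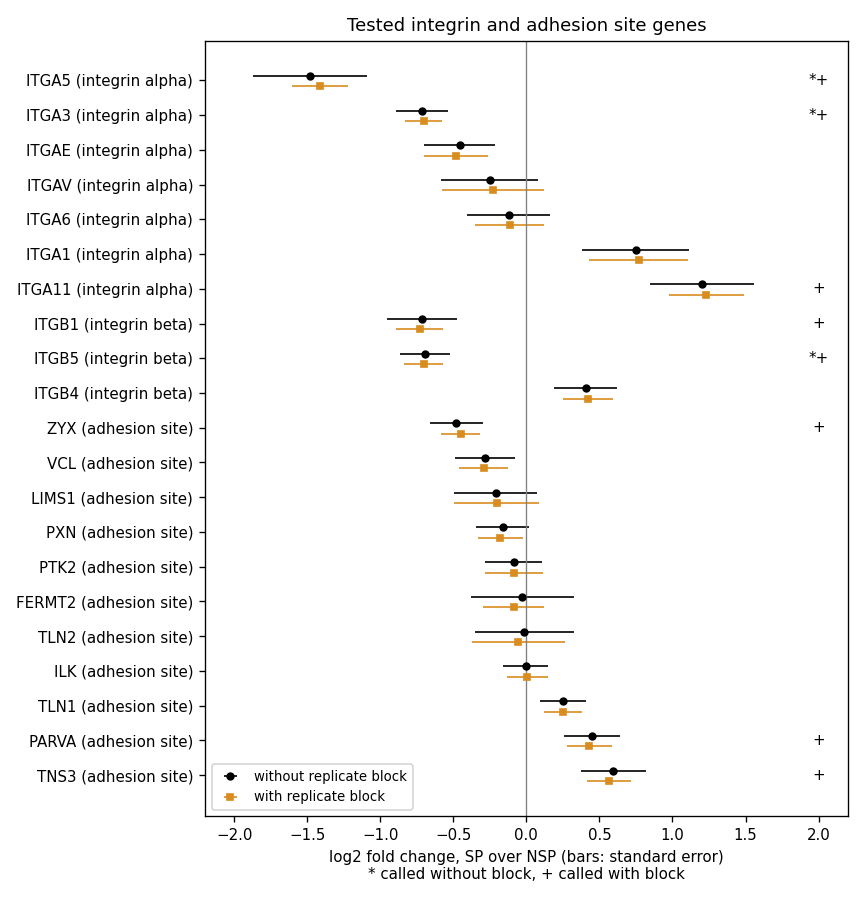
Log2 fold change of the 21 tested members, SP over NSP, with bars of 1 standard error, from edgeR without (black circles) and with (orange squares) the replicate block. Stars mark members called without the block and plus signs those called with it; the 2 fits gave nearly the same fold changes, from -1.48 for ITGA5 to 1.20 for ITGA11 without the block.

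Among the alpha subunits, ITGA3, which pairs with ITGB1 as a laminin receptor, was the most strongly counted. On GRCh37 its gene spans 48133332 to 48167845 of chromosome 17, plus strand, without an opposite-strand exon across its own. ITGA3 had 699, 628, 622 and 467 CPM in SP replicates 1 to 4 and 1266, 1070.2, 802 and 823 CPM in NSP replicates 1 to 4. Each SP library was below its same-numbered NSP library, and the highest SP library was below the lowest NSP library. ITGA3 fell by 0.71 on the log2 scale (SE 0.18, edgeR adjusted p = 0.0369), from 990 ± 220 CPM in NSP to 604 ± 97.9 CPM in SP cells (n = 4 each, SD). The adjusted p was 9.36e-06 with the replicate block. The call was lost when SP replicate 2, 3 or 4 or NSP replicate 1 or 2 was left out, at edgeR adjusted p-values of 0.0507 to 0.114, while the log2 fold change stayed between -0.81 and -0.58 over all 8 omissions.

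ITGA5, the alpha subunit of the fibronectin receptor, had the largest decrease among the tested members. The gene lies on chromosome 12 from 54789045 to 54813050 on the minus strand. ITGA5 had 30.3, 32.8, 14.6 and 11.8 CPM in SP replicates 1 to 4 and 109, 72.6, 31.3 and 33.2 CPM in NSP replicates 1 to 4. SP was lower in all 4 pairs of the same replicate number, but the groups overlapped, since SP replicate 2 lay above NSP replicate 3. Replicates 1 and 2 were higher than replicates 3 and 4 in both populations. ITGA5 fell by 1.48 on the log2 scale (SE 0.39, edgeR adjusted p = 0.0466), a 2.79-fold lower level in SP cells, with means of 22.4 ± 10.7 CPM in SP and 61.5 ± 37 CPM in NSP cells (n = 4 each, SD). With the replicate block the log2 fold change was -1.41 at an adjusted p of 2.1e-09. The call was lost without NSP replicate 1, where the log2 fold change was -1.06 and edgeR's adjusted p 0.143, and without SP replicate 2, 3 or 4 or NSP replicate 2.

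ITGA2, the collagen receptor subunit of epithelia and platelets, did not pass the filter and was singled out after its counts were seen. Its gene spans 52285170 to 52390609 of chromosome 5, plus strand, without an opposite-strand exon across its own. ITGA2 had 1, 0, 3 and 0 counts in SP replicates 1 to 4 and 29, 16, 10 and 7 counts in NSP replicates 1 to 4. No SP library reached the lowest NSP library. Scaled to library size, the 4 SP counts were 13.6-fold lower than the 62 NSP counts, with an exact 95% interval of 5.06 to 51.6 that covers counting error only. An exact two-sided permutation test of the CPM values gave p = 0.0286, the smallest that 4 against 4 libraries can give. Any gene whose libraries do not overlap gives this value, so it adds nothing to the separation of the counts. Of all tested genes, 9.75% had libraries that did not overlap in one direction or the other. Without the filter on low counts edgeR called ITGA2 lower at an adjusted p of 6.87e-07, and DESeq2 called it lower at an adjusted p of 0.00251.

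ITGA11, a collagen receptor subunit known from fibroblasts, differed in the other direction from ITGA2. It spans 68588870 to 68724502 of chromosome 15, minus strand, also without an opposite-strand exon across its own. ITGA11 had 38.2, 30.8, 16.2 and 22.1 CPM in SP replicates 1 to 4 and 5.85, 19.3, 13.4 and 6.91 CPM in NSP replicates 1 to 4. SP was higher in all 4 pairs, but SP replicate 3 lay below NSP replicate 2. The log2 fold change was 1.20 (SE 0.36, edgeR adjusted p = 0.0793), so ITGA11 missed the threshold without the block, with means of 26.8 ± 9.65 CPM in SP and 11.4 ± 6.24 CPM in NSP cells (n = 4 each, SD). With the replicate block it rose by 1.23 on the log2 scale at an edgeR adjusted p of 0.000102. It also passed without the block when no filter on low counts was applied (log2 fold change 1.18) or when NSP replicate 2 (log2 fold change 1.61, adjusted p = 0.0419) or SP replicate 3 (log2 fold change 1.39, adjusted p = 0.0459) was left out.

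The other tested alpha subunits did not pass the test in either fit. ITGA6, which pairs with ITGB1 or ITGB4 as a laminin receptor, had 15.5 to 22.2 CPM in SP and 9.68 to 28.1 CPM in NSP cells (log2 fold change -0.12). ITGAV, the shared alpha subunit of the receptors for vitronectin and latent TGF-beta, had 4.87 to 10.1 CPM in SP and 5.74 to 9.88 CPM in NSP cells (log2 fold change -0.25). ITGAE, which with ITGB7 lets lymphocytes bind E-cadherin, had 14.0 to 29.2 CPM in SP and 24.7 to 33.2 CPM in NSP cells (log2 fold change -0.45). Its partner subunit ITGB7 had 1 count in all 8 libraries together. ITGA1, another collagen receptor subunit, had 4.42 to 12.7 CPM in SP and 3.19 to 7.45 CPM in NSP cells (log2 fold change 0.75, SE 0.37, edgeR adjusted p = 0.327). Exons of PELO cover 499 bp of ITGA1 exons on the same strand, and PELO had 4 to 21 counts in the libraries where ITGA1 had 5 to 23.

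The collagen-binding subunits did not all lie on the same side: of ITGA1, ITGA2, ITGA10 and ITGA11, the first and last had higher mean CPM in SP cells, ITGA2 had higher mean CPM in NSP cells, and ITGA10 had no count. Of the alpha subunits of fibronectin and RGD receptors, ITGA5 fell, ITGAV did not pass the test, and ITGA8 had 1 count in all libraries together. The leukocyte subunits ITGAL, ITGAM and ITGAX had no more than 2 counts in any library, as had their partner ITGB2. ITGA4, ITGA10 and ITGAL had no count in any of the 8 libraries, which allows a level of up to 0.226 CPM, being 3 counts of the 13260182 counted. ITGA7 had 0 to 3 counts per library and ITGA9 had 1 to 5.

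**Figure D2:**
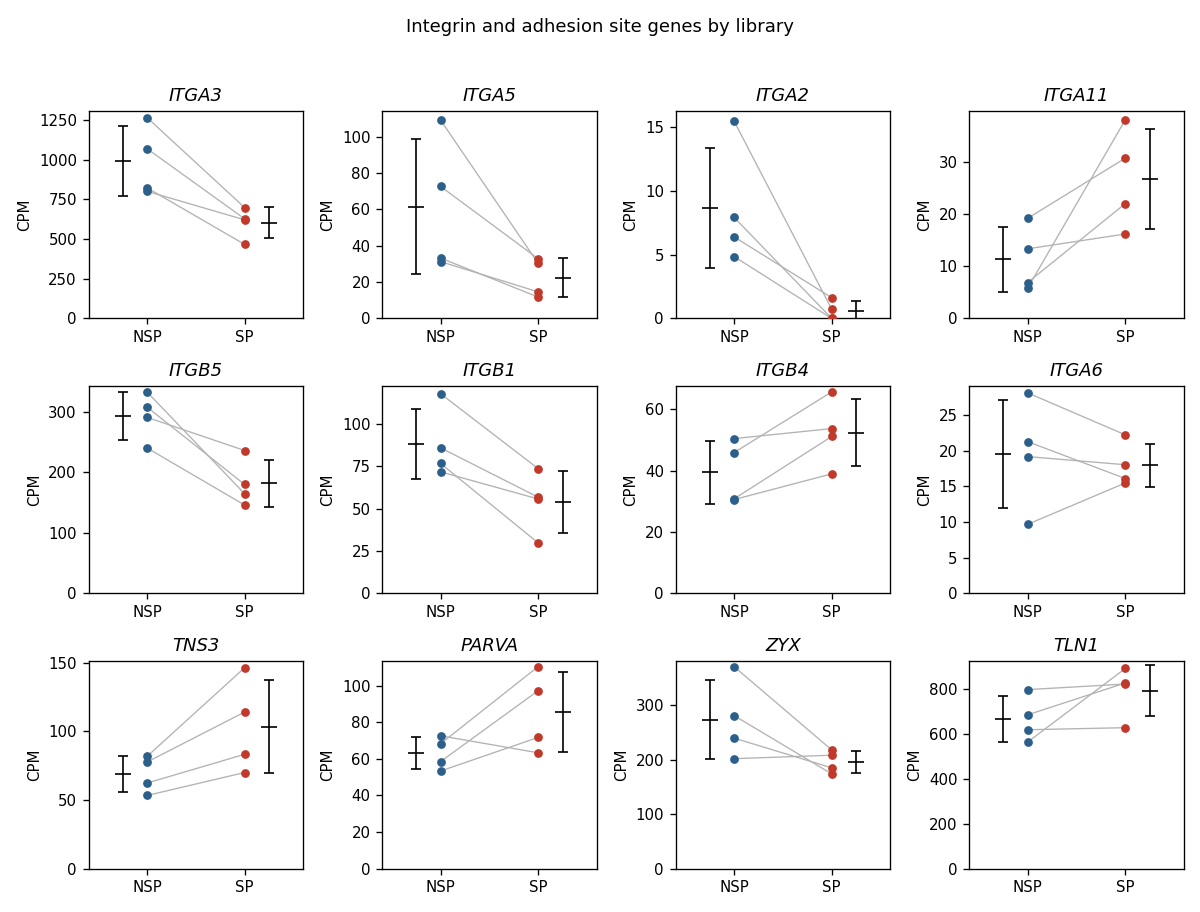
CPM of 12 members in each of the 8 libraries, on linear axes that start at 0, with grey lines joining libraries of the same replicate number and bars for the mean and SD of 4 libraries. In ITGA3, ITGA2 and ITGB5 every SP library lies below every NSP library, while ITGA5 and ITGA11 differ within each pair but overlap between groups.

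Of the beta subunits, ITGB5, which pairs with ITGAV, fell in SP cells. The gene spans 124480795 to 124620265 of chromosome 3, minus strand, and has no opposite-strand exon across its own. ITGB5 had 180, 165, 146 and 236 CPM in SP replicates 1 to 4 and 308, 333, 240.4 and 291 CPM in NSP replicates 1 to 4. The groups did not overlap, although SP replicate 4 lay just below NSP replicate 3. ITGB5 fell by 0.69 on the log2 scale (SE 0.17, edgeR adjusted p = 0.033), from 293 ± 39.1 CPM in NSP to 182 ± 38.8 CPM in SP cells (n = 4 each, SD). The adjusted p was 2.2e-05 with the replicate block. The call was lost without SP replicate 1, 2 or 3 or NSP replicate 1, 2 or 4, at edgeR adjusted p-values of 0.0574 to 0.119, with log2 fold changes of -0.85 to -0.60 over all 8 omissions.

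ITGB1, the beta subunit shared by most of the matrix receptors above, fell in the fit with the replicate block and, without it, only where no filter on low counts was applied. It lies on chromosome 10 from 33176201 to 33294720 on the minus strand. ITGB1 had 73.5, 55.6, 29.8 and 56.7 CPM in SP replicates 1 to 4 and 118, 71.6, 76.5 and 85.7 CPM in NSP replicates 1 to 4. SP was lower in all 4 pairs, with SP replicate 1 above NSP replicate 2. The log2 fold change was -0.72 (SE 0.24, edgeR adjusted p = 0.12) without the block and -0.73 (adjusted p = 0.00025) with it. This difference is close in size to those of ITGA3 and ITGB5, but the libraries of ITGB1 were more spread.

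ITGB4, the hemidesmosome subunit that binds ITGA6, had 39.0 to 65.7 CPM in SP and 30.6 to 50.5 CPM in NSP cells. It was higher in SP in all 4 pairs, but its log2 fold change of 0.41 (SE 0.22, edgeR adjusted p = 0.381) missed the threshold with and without the block. The remaining beta subunits were nearly uncounted: ITGB2, ITGB3, ITGB6 and ITGB8 had 0 to 4 counts in every library. ITGB8, which activates latent TGF-beta, had 8 counts in SP and 1 count in NSP cells, and ITGB6, the subunit of injured epithelia, had 0 counts in SP and 4 in NSP cells.

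Of the 11 tested adhesion site genes, ZYX fell and TNS3 and PARVA rose, each only with the block, and the other 8 passed in neither fit. ZYX encodes zyxin, a LIM protein of actin fibres under tension, and lies on chromosome 7 from 143078388 to 143088204 on the plus strand. It had 218, 174, 208 and 185 CPM in SP replicates 1 to 4 and 370.2, 280.5, 202 and 239 CPM in NSP replicates 1 to 4. SP was lower in 3 of 4 pairs, and the SP libraries lay close to the lowest NSP library. The log2 fold change of ZYX was -0.48 (SE 0.18, edgeR adjusted p = 0.181) without and -0.45 (adjusted p = 0.0125) with the replicate block. Without the block it ran from -0.60 to -0.30 over the 8 omissions of a library, the smallest difference being without NSP replicate 1.

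TNS3 encodes tensin 3, which binds the beta tail, and lies on chromosome 7 from 47314752 to 47622156 on the minus strand. It had 69.9, 114, 146 and 83.2 CPM in SP replicates 1 to 4 and 53.2, 77.5, 81.6 and 62.2 CPM in NSP replicates 1 to 4. SP was higher in all 4 pairs, with the lowest SP library below 2 of the NSP libraries. The log2 fold change of TNS3 was 0.60 (SE 0.22, edgeR adjusted p = 0.175) without and 0.57 (adjusted p = 0.0038) with the block. Without the block it ran from 0.38 without SP replicate 3 to 0.74 without SP replicate 1. PARVA encodes alpha-parvin, the actin-binding arm of the ILK complex, and lies on chromosome 11 from 12399110 to 12556903 on the plus strand. It had 97.3, 71.7, 110.5 and 63.3 CPM in SP replicates 1 to 4 and 58.5, 53.3, 68.2 and 72.6 CPM in NSP replicates 1 to 4. SP was higher in 3 of 4 pairs and the groups overlapped. The log2 fold change of PARVA was 0.45 (SE 0.19, edgeR adjusted p = 0.255) without the block and 0.43 (adjusted p = 0.0496) with it, and it missed the threshold with the block when genes crossed on the other strand were left out (adjusted p = 0.0764). Without the block it ran from 0.30 without SP replicate 3 to 0.56 without SP replicate 4.

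The proteins that switch integrins on and the core of the adhesion site passed the test in neither fit. TLN1, the main talin, had 629 to 894 CPM in SP and 565 to 800 CPM in NSP cells (log2 fold change 0.25, SE 0.16, edgeR adjusted p = 0.479). TLN2, the second talin, had 4.02 to 14.4 CPM in SP and 7.90 to 10.8 CPM in NSP cells (log2 fold change -0.01). FERMT2, the kindlin of most adherent cells, had 7.93 to 36.8 CPM in SP and 14.4 to 34.4 CPM in NSP cells, replicate 1 being the lowest in both (log2 fold change -0.03). FERMT1, the kindlin of epithelia, had 0 to 2 counts per library. VCL (vinculin) had 33.5 to 60.1 CPM in SP and 50.4 to 73.9 CPM in NSP cells (log2 fold change -0.28). PXN (paxillin), the scaffold that recruits FAK, had 56.7 to 94.2 CPM in SP and 71.2 to 91.8 CPM in NSP cells (log2 fold change -0.16). PTK2, which encodes FAK, had 24.3 to 35.2 CPM in SP and 26.8 to 37.3 CPM in NSP cells (log2 fold change -0.09). ILK had 134 to 154 CPM in SP and 123 to 180 CPM in NSP cells (log2 fold change 0.00, SE 0.15), and LIMS1, the PINCH of the same complex, had 7.37 to 13 CPM in SP and 8.99 to 14.3 CPM in NSP cells (log2 fold change -0.21). TNS1, the other tensin listed, had 0 to 2 counts per library.

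Levels of different members were compared per kb of annotated exon, since longer transcripts collect more counts. Exon lengths merge all annotated transcripts of a gene and can exceed that of the transcript expressed, so the ranks are rough. In NSP cells ITGA3 ranked first at 101 CPM per kb, followed by ZYX at 83.5, TLN1 at 67.3, ITGB5 at 45.0 and ILK at 42.1 CPM per kb. In SP cells TLN1 ranked first at 80.0 CPM per kb, followed by ITGA3 at 61.6, ZYX at 60.0, ILK at 41.9 and ITGB5 at 27.9 CPM per kb. The same 5 members led in both populations. The next members were far lower, with PXN at 9.63 CPM per kb in SP and 10.8 in NSP cells. ITGB1, which ITGA3 and ITGA5 need as a partner, stood at 3.70 CPM per kb in SP and 6.03 in NSP cells, well under ITGA3 in both. The merged exon length was 14.6 kb for ITGB1 and 9.8 kb for ITGA3, which differ far less than the levels do. How the counting treated strand is not known either, so these levels and ranks may not follow those of the mRNAs. The size of this gap is uncertain and its cause was not tested. ITGA5 stood at 3.03 CPM per kb in SP and 8.33 in NSP cells.

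**Figure D3:**
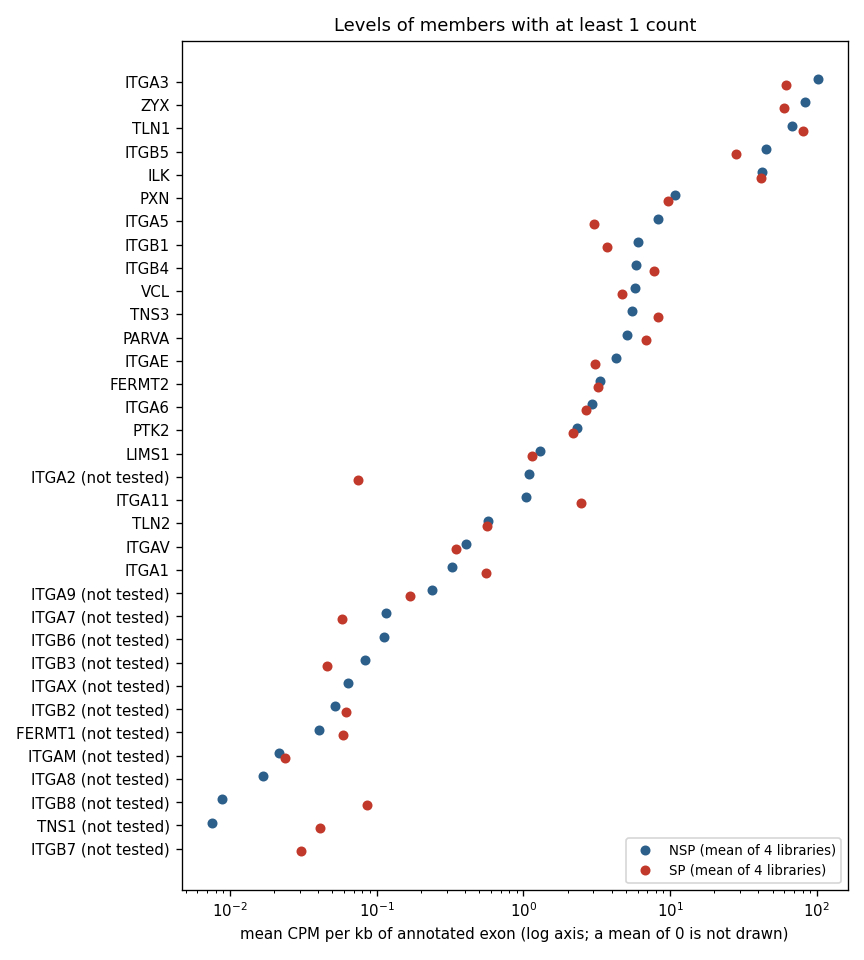
Mean CPM per kb of annotated exon in NSP (blue) and SP (red) cells for the 34 members with at least 1 count, on a log axis, ordered by the NSP mean; a mean of 0 is not drawn. The top 5 members lie above 25 CPM per kb in both populations, and ITGA2 has the widest gap between the 2 points among members above 1 CPM per kb in NSP cells.

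How the counting treated strand is not given in the sources used here, so reads of genes that cross on opposite strands cannot be told apart here. Exons of 21 of the 37 members, and of 12 of the 21 tested, cross an annotated exon of the other strand, as do those of 57.4% of all tested genes. The lack of such a crossing, as at ITGA2, ITGA3, ITGA11 and ITGB5, does not show which strand the counts came from. Opposite genes that the deposited table lists formed 29 pairs with 20 members, and in 11 of the 18 pairs with at least 100 counts the opposite gene had more counts than the integrin or adhesion gene. The widest gaps among the tested members were at ILK, which had 200 to 280 counts per library where TAF10, crossing it by 2375 bp, had 4034 to 6255, and at PXN, which had 77 to 175 where PXN-AS1, crossing it by 1769 bp, had 814 to 2024. TAF10 did not pass the test (log2 fold change -0.08), and PXN-AS1 fell only with the replicate block (log2 fold change -0.44, edgeR adjusted p = 0.194 without and 0.0106 with it).

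The opposite gene of ITGA5 moved with it. GPR84-AS1, whose exons cross ITGA5 by 48 bp, had 31.7, 28.1, 16.8 and 14.0 CPM in SP replicates 1 to 4 and 101, 72.1, 40.8 and 34.6 CPM in NSP replicates 1 to 4. In both genes replicate 1 or 2 was the highest library of each population. GPR84-AS1 fell by 1.47 on the log2 scale (SE 0.33, edgeR adjusted p = 0.0212), and its summed count was 586 where that of ITGA5 was 583. The call was lost without NSP replicate 1 (log2 fold change -1.15, adjusted p = 0.06), NSP replicate 2 or SP replicate 3 or 4. Whether the counts of ITGA5 come from its own strand was not tested.

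At ITGA6, 1 of 3 tested opposite genes fell without the block, as did the 1 tested at ITGAV, while neither integrin passed the test. ENSG00000226963, crossing ITGA6 by 174 bp, had 14.0 to 22.7 CPM in SP and 33.2 to 37.8 CPM in NSP cells and fell by 0.84 on the log2 scale (SE 0.21, edgeR adjusted p = 0.0323). ITGA6-AS1, crossing ITGA6 by 125 bp, fell only with the block (log2 fold change -0.82, edgeR adjusted p = 0.0615 without and 0.000715 with it), and PDK1-AS1, crossing it by 52 bp, passed in neither fit (log2 fold change -0.48). ENSG00000227227, crossing ITGAV by 203 bp, had 19.1 to 22.8 CPM in SP and 29.97 to 39.4 CPM in NSP cells and fell by 0.73 on the log2 scale (SE 0.20, edgeR adjusted p = 0.0485). Each of these had more counts than its integrin, with summed counts of 370 for ENSG00000226963 against 248 for ITGA6 and 374 for ENSG00000227227 against 95 for ITGAV. The call of ENSG00000226963 was lost in 5 of 8 omissions of a library (adjusted p up to 0.098) and that of ENSG00000227227 in 7 of 8 (adjusted p up to 0.133). EPHA1, which crosses ZYX by 82 bp, had 254 to 358 CPM in SP and 395 to 550 CPM in NSP cells and, like ZYX, fell only with the block (log2 fold change -0.48, edgeR adjusted p = 0.114 without and 0.00391 with it). Of the remaining opposite genes that were tested, AP3M1 at VCL (log2 fold change -0.56), ENSG00000259370 at TLN2 (-0.36), ENSG00000254400 at ILK (-0.10) and ZNF740 at ITGB7 (-0.35) passed in neither fit. The others, among them CERKL across ITGA4, HASPIN across ITGAE and ITGB1-DT across ITGB1, had 0 to 17 counts per library and were not tested.

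**Figure D4:**
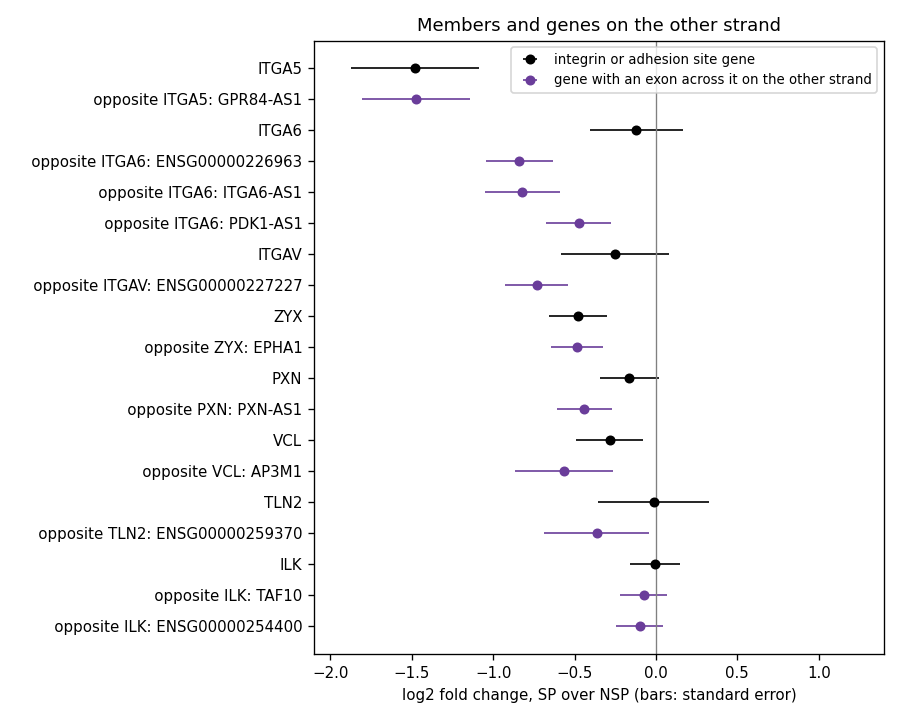
Log2 fold change, SP over NSP, with bars of 1 standard error, of tested members (black) and of tested genes whose exons cross them on the other strand (purple), without the replicate block. GPR84-AS1 and ITGA5 lie together near -1.5, whereas the opposite genes of ITGA6 and ITGAV lie below the integrins, which are near 0.

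The genes that integrins bind and work with were taken from lists of 88 further adhesion genes, of which 65 were tested. They were listed by role, but with earlier results of these data known, so their shares do not test for an excess. In SP cells 7 of them fell (FN1, TNC, LAMC1, PDLIM7, ITGB1BP1, SDC1 and CAV1) and 1 rose (NEDD9), against backgrounds of 2.03% and 1.63% of all tested genes. With the replicate block 13 fell and 3 rose, against backgrounds of 7.00% and 5.89%, with TGFB1, LAMB1, LAMB3, VASP and FYN among those added to the genes that fell and CCN1 and ICAM1 added to those that rose. The median log2 fold change was -0.15 over the 65 and 0.01 over all tested genes. In 15 of the 65 the libraries did not overlap between the groups, against 9.75% of all tested genes. By role, 3 of 13 tested ligands fell, 1 of 20 other adaptors fell, 1 of 18 kinases and signalling adaptors rose, and 3 of 14 regulators and membrane partners fell. The other integrin subunits listed, ITGA2B and ITGAD, were not tested.

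FN1 encodes fibronectin, the ligand of the receptor of ITGA5 and ITGB1. It had 40.4, 36.9, 35.2 and 47.8 CPM in SP replicates 1 to 4 and 86.2, 85.9, 109 and 101 CPM in NSP replicates 1 to 4. The highest SP library lay far below the lowest NSP library. FN1 fell by 1.25 on the log2 scale (SE 0.17, edgeR adjusted p = 0.000863) and stayed called in all 8 omissions. TNC, which encodes tenascin C, had 1.47 to 5.04 CPM in SP and 7.61 to 17.9 CPM in NSP cells and fell by 2.19 on the log2 scale (SE 0.40, edgeR adjusted p = 0.00646). LAMC1, the gamma chain of most laminins and so of the ligands of ITGA3 and ITGA6, had 64.8 to 83.8 CPM in SP and 104 to 145 CPM in NSP cells and fell by 0.75 on the log2 scale (SE 0.16, edgeR adjusted p = 0.0187). The call of LAMC1 was lost without NSP replicate 1 (adjusted p = 0.0531) or SP replicate 4 (adjusted p = 0.0536).

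The laminin chains LAMB1 (log2 fold change -0.95, edgeR adjusted p = 0.0517) and LAMB3 (-1.75, adjusted p = 0.071) fell only with the block, at adjusted p-values of 0.00262 and 4.83e-06. TGFB1, whose latent form is a ligand of ITGAV receptors, had 756 to 846 CPM in SP and 1008 to 1343 CPM in NSP cells and likewise fell only with the block (log2 fold change -0.52, edgeR adjusted p = 0.0637 without and 0.00227 with it). ICAM1, a ligand of leukocyte integrins, had 88.8 to 103 CPM in SP and 52.9 to 82 CPM in NSP cells and rose only with the block (log2 fold change 0.56, edgeR adjusted p = 0.0905 without and 0.00335 with it). CCN1, a secreted matrix protein that binds integrins, varied among replicates in both groups, from 81.4 to 415 CPM in SP and from 81.4 to 250.004 CPM in NSP cells, and rose with the block only (log2 fold change 0.55, edgeR adjusted p = 0.521 without and 0.0106 with it). Its log2 fold change without the block ran from 0.10 without SP replicate 3 to 0.85 without NSP replicate 3.

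ITGB1BP1 encodes ICAP1, which binds the tail of ITGB1 and keeps talin off it. It had 44.7, 43.6, 48.2 and 38.3 CPM in SP replicates 1 to 4 and 105, 140, 115 and 95.4 CPM in NSP replicates 1 to 4, so that the groups lay well apart. It fell by 1.38 on the log2 scale (SE 0.17, edgeR adjusted p = 0.000455), and its exons cross an exon of the other strand by 2209 bp. CAV1, caveolin 1, a membrane partner of integrins, had 28.7 to 54.1 CPM in SP and 70.5 to 88.3 CPM in NSP cells and fell by 1.12 on the log2 scale (SE 0.21, edgeR adjusted p = 0.00696). SDC1, the proteoglycan syndecan 1, had 4.42 to 12.5 CPM in SP and 11.8 to 38.3 CPM in NSP cells, with SP replicate 3 above NSP replicate 4. It fell by 1.55 on the log2 scale (SE 0.37, edgeR adjusted p = 0.0281) and lost the call in 5 of 8 omissions (adjusted p up to 0.0979).

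NEDD9, a docking protein that FAK and SRC phosphorylate, was the gene of these lists that rose. It had 25.2, 29.5, 29.2 and 40.5 CPM in SP replicates 1 to 4 and 11.2, 14.3, 12.1 and 14.5 CPM in NSP replicates 1 to 4, and no library of one group reached the other. NEDD9 rose by 1.25 on the log2 scale (SE 0.23, edgeR adjusted p = 0.00692) and stayed called in all 8 omissions, as did FN1, TNC, ITGB1BP1 and CAV1. Like ITGB1BP1, NEDD9 is crossed on the other strand, and it left the test when such genes were left out. PDLIM7, an actin-bound LIM protein, had 57.6 to 73.7 CPM in SP and 88.0 to 134 CPM in NSP cells and fell by 0.72 on the log2 scale (SE 0.17, edgeR adjusted p = 0.0273), a call lost in 5 of 8 omissions (adjusted p up to 0.0844). The actin regulator VASP (log2 fold change -0.44) and the kinase FYN (-0.84) fell only with the block, at edgeR adjusted p-values of 0.0185 and 0.03.

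**Figure D5:**
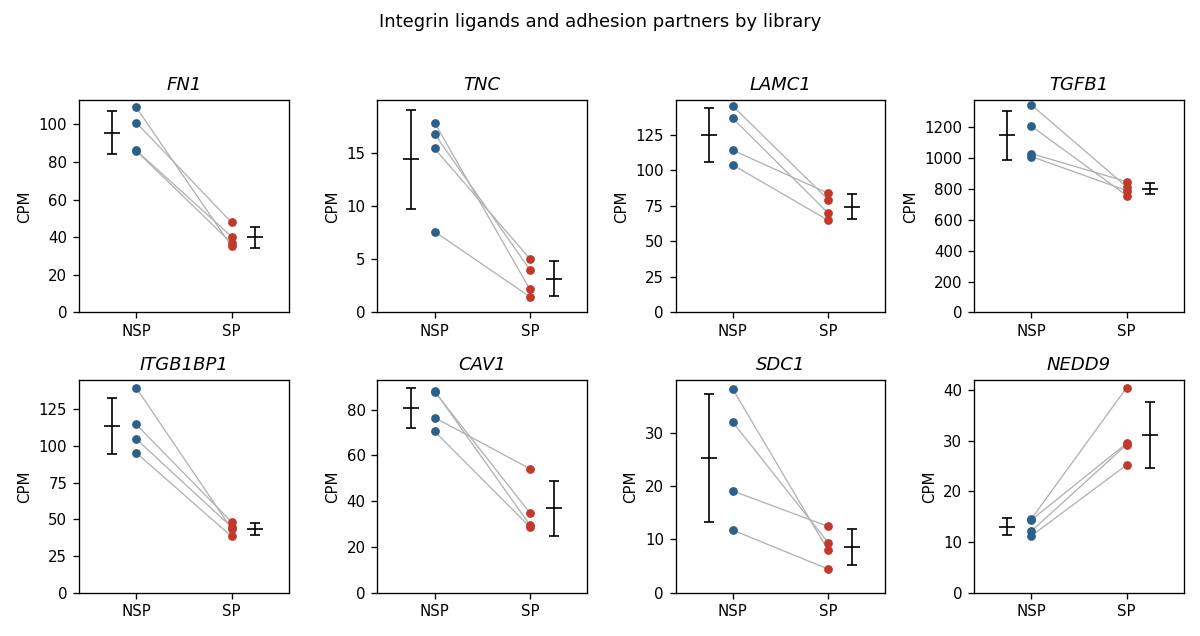
CPM of 8 ligands and partners of integrins in each library, on linear axes that start at 0, with grey lines joining libraries of the same replicate number and bars for the mean and SD of 4 libraries. In FN1, TNC, LAMC1, TGFB1, ITGB1BP1 and CAV1 every SP library lies below every NSP library, in SDC1 the groups overlap, and in NEDD9 every SP library lies above.

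Some marker genes differed between the populations too. Over all tested genes, 2.03% fell without the block and 7.00% with it. Of 5 epithelial markers, 4 were tested and KRT7 fell by 1.35 on the log2 scale (edgeR adjusted p = 0.0034). The list summed to 3401 to 4752 CPM in SP and 4636 to 6379 CPM in NSP libraries. Most of this sum was KRT8 (log2 fold change -0.29), which passed in neither fit, as did KRT18 and KRT19. Of 4 mesenchymal markers none fell without the block and VIM fell with it. The list summed to 248 to 431 CPM in SP and 412 to 796 CPM in NSP libraries, most of it VIM. CDH2 (log2 fold change -0.03), ZEB1 (-0.46) and ZEB2 (0.52) passed in neither fit. Of 6 genes of G2 and mitosis, 5 were tested: TOP2A fell without the block and MKI67 and PLK1 with it, while CCNB1 and AURKA passed in neither fit. The list summed to 121 to 390 CPM in SP and 217 to 443 CPM in NSP libraries. EPCAM, a defining epithelial marker, had 3 counts in all 8 libraries together and none in 5 of them. The part of cell state or cell cycle in the differences of the adhesion genes was not tested.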

How the data were processed

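RNA-seq of 4 SP and 4 NSP samples of J82 cells was analysed. The authors aligned single-end reads of KAPA mRNA HyperPrep libraries to hg19 with STAR and assigned them to GENCODE genes with featureCounts of Subread, and the deposited values are raw read counts per gene. How strand and reads with several matches were handled is not given in the sources used here. Samples were grouped by the population in their labels. The members and the gene lists were chosen with earlier results of these data known.

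Counts were scaled by TMM and fitted by quasi-likelihood (glmQLFit and glmQLFTest of edgeR 4.0.16, run in R 4.3.3) without covariates, after filterByExpr had removed low genes (min.count 10, min.total.count 15), with Benjamini-Hochberg adjustment over all 9309 tested genes and calls at an adjusted p under 0.05 and a fold change over 1.3. Standard errors were the fold change divided by the root of the F statistic. Deviations of same-numbered SP and NSP samples from their group means correlated over genes at 0.380, 0.203, 0.322 and 0.321, so the replicate numbers were taken to pair the samples, and a fit with the replicate number as a block was run. No pair of libraries was a duplicate (chi-square per degree of freedom of 5.70 or more within groups). Gene positions and exon overlaps came from a GENCODE annotation of GRCh37, which named 55538 of the 57820 genes, and promoters from RefSeq for GRCh38.p14. In counts simulated for the 9309 genes with 200 changed, 92% of 4-fold and 50% of 2-fold changes were recovered, and 8 of 150 calls were false. The simulation used the same fixed dispersion for every gene, not estimated from these libraries, so recovery may differ from gene to gene.

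Members that passed the filter were named with their range and fold change, and those called in either fit, not overlapping between groups or with an unadjusted p under 0.05 with every library. Members under the filter were given by their counts, and genes of the other lists were named where they were called in either fit. Alternatives were DESeq2 1.42.0, its size factors or upper-quartile normalization within edgeR, the replicate block, a test against 1.3-fold, no filter, a floor of 10 counts per library, leaving out genes crossed on the other strand and leaving out each library. PECAM1 was not analysed here. Some listed genes are counted in the totals but not reported here by name.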

Additional observations from a re-analysis of the deposited data

Results flagged for a closer look

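In 3 of 76 groups of 4 libraries checked, among the tested members and the named adhesion genes, 1 library stood apart from the other 3 by Dixon's ratio of gap to range, which was above its 95% critical value for 4 values. Chance alone marks about 1 group in 20. ITGA1 had 4.42 CPM in SP replicate 4 and 11.5 to 12.7 CPM in the other SP libraries, a ratio of 0.855. VCL had 73.9 CPM in NSP replicate 1 and 50.4 to 53.2 CPM in the other NSP libraries, a ratio of 0.879. ICAM1 had 103 CPM in SP replicate 2 and 88.8 to 90.5 CPM in the other SP libraries, a ratio of 0.873. The causes were not tested.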

How the results depend on the processing

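The number of counted reads limits the low members: 16 of 37 were under the filter. About 50% of 2-fold changes were recovered in a simulation that gave every gene the same fixed dispersion, not estimated from these libraries. A member that missed the threshold is not shown to be equal in both populations. Normalization by DESeq2 size factors or the upper quartile and a minimum of 10 counts in every library kept the counts of calls within 1.5 times. Over all 9309 tested genes, 152 rose and 189 fell. These became 303 and 381 of 26361 tested without the filter, 548 and 652 with the replicate block, and 51 and 67 in the test against a fold change of 1.3. Without genes crossed on the other strand only 3974 were tested, of which 58 rose and 65 fell. When each library was left out, 69 to 164 rose and 89 to 181 fell. Members that rose numbered 0, and 1 without the filter, 3 with the replicate block, 2 of 9 tested with the block and without crossed genes, and 0 to 1 over omissions. Members that fell numbered 3, and 5 without the filter, 5 with the block, 0 in the test against 1.3-fold and 0 to 3 over omissions. The number was 0 without SP replicate 3, NSP replicate 1 or NSP replicate 2. Without SP replicate 2 the 1 member that fell was ITGA2, which passed the filter in that omission. ITGA3, ITGA5 and ITGB5 all lost their calls there. ITGA2 was likewise among the 3 members that fell without SP replicate 1. Of the other adhesion genes 1 rose, and 3 with the block, 0 without crossed genes and 1 in every omission. Without crossed genes 32 of them were tested, and NEDD9 was no longer among these. Of these genes 7 fell, and 11 by DESeq2, 13 with the block, 4 in the test against 1.3-fold and 4 to 9 over omissions. Log2 fold changes near 0 changed sign in some fits: TLN2 to 0.0059 and ILK to 0.011 with upper-quartile normalization, and ILK to 0.0074 with the block. Over omissions TLN2 ranged from -0.29 to 0.23, ILK from -0.085 to 0.099, ITGA6 from -0.33 to 0.086 and FERMT2 from -0.26 to 0.27, turning positive without SP replicate 2 or NSP replicate 3 (TLN2), SP replicate 3 or NSP replicate 4 (ILK), NSP replicate 3 (ITGA6), and SP replicate 1 or NSP replicate 2, 3 or 4 (FERMT2). The replicate block changed no other call of a member than those given with the genes. Over 22 members and all alternatives, 294 of 336 fold changes kept their direction and their side of the threshold. For ITGA2, which had no call in the main fit, a fold change was instead counted as kept where it lay within the exact 95% interval. The causes were not tested.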

Other observations

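Several members had their highest or lowest level in the same replicate number of both populations. FERMT2 was lowest in replicate 1, at 7.93 CPM in SP and 14.4 CPM in NSP cells, while ITGA5 was higher in replicates 1 and 2 than in replicates 3 and 4 of both populations. TNS3 was highest in replicate 3 and lowest in replicate 1 of both. The labels do not say what the replicate numbers stand for.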
